A study of Drosophila melanogaster with 2 samples.

Results

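The 7 small heat shock protein genes of the fruit fly (Drosophila melanogaster) that stand side by side on chromosome arm 3L at cytological position 67B were Hsp22, Hsp23, Hsp26, Hsp27, Hsp67Ba, Hsp67Bb and Hsp67Bc. They were chosen by name, out of 18164 annotated genes, of which 13945 were protein-coding. The position of the protein CG12769 on the chromosomes was measured in pooled male and female whole embryos aged 10 to 24 h by ChIP-seq, in which an antibody pulls down a protein with the DNA it is bound to and that DNA is sequenced. Every embryo came from a transgenic line that stably expressed CG12769 with green fluorescent protein (GFP) at its C-terminus, and the antibody was directed against GFP. The study had a single group of 2 biological replicates, with the numbers 5 and 7, and no treated or untreated contrast, so the comparisons are between replicates, between the 7 genes, and between them and other genes. Whole embryos mix many tissues, and a peak does not show in which cells the tagged protein was bound. A peak belonged to a gene when its summit, the position of the peak's highest point, lay inside the gene or within 1 kb of it.

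Small heat shock proteins are chaperones that hold unfolding proteins in solution without using ATP, and most share a domain named after the alpha-crystallin of the eye lens. In flies they are known both for induction by heat, through the heat shock factor Hsf, and for expression without stress during development, where the moulting hormone ecdysone acts on several of them. Hsf binds alternating copies of the short words GAA and TTC, the heat shock element. GAGA factor, the product of Trl, binds GA repeats and is known for keeping heat shock promoters accessible. Hsp22 works in mitochondria, Hsp23 and Hsp26 in the cytosol, Hsp27 largely in the nucleus, and Hsp67Bc with the co-chaperone starvin in the removal of aggregated proteins. Hsp67Ba is a less studied member. Hsp67Bb, which the annotation lists as CG4456, lies in the cluster but encodes a rhodanese domain protein and no alpha-crystallin domain.

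There were 30000 peaks in the list of each replicate and as many in a list made from both together, the pooled list. A further set held 8574 peaks kept by IDR, the irreproducible discovery rate, which scores the match of ranks between replicates, at a limit the authors chose. These IDR peaks were the 8574 strongest pooled peaks. The value of a peak is the authors' own signal, used here only to rank peaks inside a list. Among IDR peaks the lowest value was 169.7, the median 288.9 and the highest 16058.3. The number of reads behind a peak is unknown, so the values carry no depth-based error.

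The cluster ran over 14184 bp, at chr3L:9371511-9385694 (dm6), and held CG12769 peaks at 3 places that passed IDR. The first stood in the 224 bp between Hsp67Bc and Hsp67Bb, which point away from each other. The second stood in front of Hsp26 and the third in front of Hsp27. Hsp23, between the second and the third, had a weaker peak below the IDR limit, and Hsp67Ba had no peak at its start. The sequences under the 4 peaks that lay between genes are given so that their heat shock element pairs can be compared. Exact pairs, defined below, occur here at Hsp67Bc, Hsp26 and Hsp23 and not at Hsp27. Inexact or differently spaced copies were not searched for. The sequences are read in the direction of the named gene from the dm6 sequence as held by RefSeq. They are cut where a transcript began and to at most 300 bases. Capitals mark the GAA and TTC of each heat shock element pair, that is GAANNTTC or TTCNNGAA, searched on both strands.
Hsp67Bc (chr3L:9372498-9372671, minus strand, 174 to 1 bp before the start, also the promoter of Hsp67Bb): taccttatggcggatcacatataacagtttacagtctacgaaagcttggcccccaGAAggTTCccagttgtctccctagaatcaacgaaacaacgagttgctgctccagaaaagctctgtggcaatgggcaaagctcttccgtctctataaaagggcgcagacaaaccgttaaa
Hsp26 (chr3L:9377457-9377668, minus strand, 241 to 30 bp before the start of the longer transcript): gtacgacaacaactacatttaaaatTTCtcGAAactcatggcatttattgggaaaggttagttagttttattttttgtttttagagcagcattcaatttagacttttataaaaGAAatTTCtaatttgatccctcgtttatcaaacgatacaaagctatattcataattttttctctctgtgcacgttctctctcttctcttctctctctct
Hsp23 (chr3L:9381556-9381855, plus strand, 326 to 27 bp before the start, below the IDR limit): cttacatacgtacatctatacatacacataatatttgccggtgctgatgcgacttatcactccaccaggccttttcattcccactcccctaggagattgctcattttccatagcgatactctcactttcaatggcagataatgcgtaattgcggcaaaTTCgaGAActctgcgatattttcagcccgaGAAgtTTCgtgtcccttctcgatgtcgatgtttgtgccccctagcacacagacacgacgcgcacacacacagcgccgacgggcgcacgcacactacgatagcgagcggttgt
Hsp27 (chr3L:9383773-9384039, plus strand, 290 to 24 bp before the start): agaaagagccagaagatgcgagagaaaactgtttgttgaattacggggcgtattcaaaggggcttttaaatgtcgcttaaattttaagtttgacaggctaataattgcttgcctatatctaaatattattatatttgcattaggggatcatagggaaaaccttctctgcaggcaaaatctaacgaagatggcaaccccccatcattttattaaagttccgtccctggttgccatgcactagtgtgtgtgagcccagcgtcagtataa

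Of the 7 genes, 6 had an IDR summit inside or within 1 kb, beside 31.8% of all protein-coding genes. A promoter peak is one whose summit is at most 500 bp from a transcription start site (TSS). In the IDR set 5 of the genes had one, beside 21.3% of protein-coding genes. These 5 genes do not stand for 5 places, since Hsp22, Hsp67Bb and Hsp67Bc share 1 peak. In the pooled list 7 peaks reached all 7 genes by the 1 kb rule, beside 46.4% of protein-coding genes, and 6 genes had a promoter peak, beside 34.9%. Replicate 5 alone gave 6 peaks, which reached 7 genes (49.3% of protein-coding genes) and the promoters of 6 (37.5%). Replicate 7 alone gave 5 peaks, which reached 7 genes (46.2%) and the promoters of 6 (35.0%). No test was made of these counts, because the genes were chosen with earlier results of these data known. Neither gene activity nor a control library was analysed here.

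**Figure D1:**
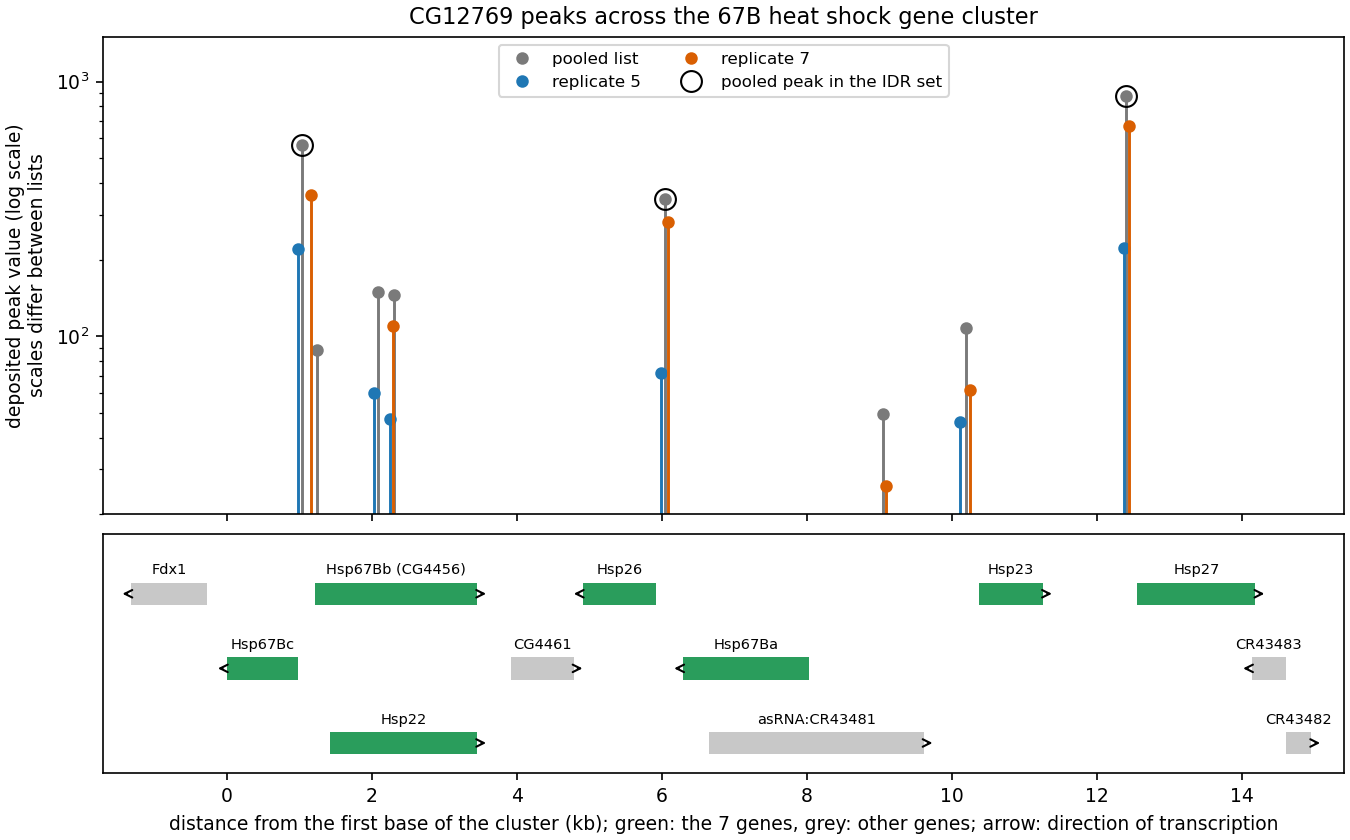
Peaks across the heat shock gene cluster. The upper panel plots the deposited value of each peak (log scale, not comparable between lists) against its summit's distance from the first base of the cluster in kb, for the pooled list and both replicates, drawn slightly apart where lists coincide, with the 3 IDR peaks circled, and the lower panel shows the genes and their direction. The circled peaks stand in front of Hsp67Bc and Hsp67Bb, Hsp26 and Hsp27, and no summit lies within Hsp67Ba.

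The peak between Hsp67Bc and Hsp67Bb (chr3L:9372470-9372671) had a value of 566 and rank 1484 in the IDR set. Its summit at chr3L:9372552 lay 55 bp upstream of Hsp67Bc and 170 bp upstream of the first TSS of Hsp67Bb. It also lay 379 bp upstream of a TSS at chr3L:9372931 that Hsp67Bb and Hsp22 share, where the annotation gives each of them a transcript with the same first and last base. Starts of 3 protein-coding genes were thus in reach of 1 summit, which held for 29 of the 3143 IDR peaks near a protein-coding TSS, or 0.923%, counting peaks with 3 genes or more. Both replicates had this peak. In replicate 5 its value was 220 with rank 1875, and in replicate 7 it was 357 with rank 1277. The replicates placed it differently: the summit of replicate 5 lay 43 bp from the start of Hsp67Bc, and that of replicate 7 lay 104 bp from the start of Hsp67Bb, which was then the nearer gene. The summits were 78 bp apart, against a median of 25 bp over the 8356 IDR peaks found in both replicates, and 13.0% of those peaks had summits farther apart. The nearer of both genes thus changed with the replicate.

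Hsp22 has a second, inner TSS at chr3L:9373997, which gives a transcript with Hsp22 alone, and weaker peaks stood before it. In the pooled list a summit lay 186 bp upstream of this start, with a value of 145 and rank 10244, and another lay 404 bp upstream, with a value of 149 and rank 9898. Both fell below the 169.7 at which the IDR set ended. Both lay inside the long shared transcript, in the 3' UTR of Hsp67Bb and the 5' UTR of the long Hsp22 transcript. Replicate 5 showed the same pair, with summits 181 bp upstream (value 47.1, rank 14151) and 403 bp upstream (59.7, rank 11200). Replicate 7 had 1 peak in their place, 247 bp upstream, with a value of 110 and rank 7963. A last pooled peak had its summit 33 bp inside Hsp67Bb, with a value of 88.5 and rank 16442. It overlapped the replicates' peaks between Hsp67Bc and Hsp67Bb, whose summits lay 215 bp away in replicate 5 and 137 bp away in replicate 7, and had no replicate summit of its own. The inner Hsp22 promoter is shown by 30 bases around the heat shock element pair nearest to the pooled and replicate 5 summits, since these fell inside it.
Hsp22 (chr3L:9373798-9373827, plus strand, 199 to 170 bp before the inner start): agagagccccaGAAacTTCcacggagttcg

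The peak in front of Hsp26 (chr3L:9377457-9377668) had a value of 346 and rank 3285 in the IDR set. Its summit at chr3L:9377551 lay 124 bp upstream of the longer Hsp26 transcript and 176 bp upstream of the shorter one. The same summit lay 251 bp beyond the 3' end of Hsp67Ba, which is transcribed in the same direction, and this alone put Hsp67Ba among the genes with a peak in reach. In replicate 5 the value was 71.5 and the rank 9260, and in replicate 7 they were 280 and 1935. The summits were 10 bp apart, so the place was nearly the same in both replicates and the rank was not. By rank, replicate 5 alone would not have put this peak among its 8574 strongest.

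The Hsp27 peak (chr3L:9383773-9384039) was the strongest of the cluster, with a value of 879 and rank 651 in the IDR set. Its summit at chr3L:9383905 lay 158 bp upstream of the TSS. In replicate 5 the value was 222 and the rank 1847, and in replicate 7 they were 669 and 390. The summits were 28 bp apart. Both transcripts of Hsp27 begin at the same base, so the peak had a single start to face.

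Hsp23, whose gene lies between asRNA:CR43481 and Hsp27, had a summit upstream of its TSS in every list except the IDR set. In the pooled list it lay 177 bp upstream, with a value of 108 and rank 13711. Replicate 5 gave 217 bp, a value of 46.1 and rank 14473, and replicate 7 gave 177 bp, 61.3 and rank 14717. Hsp23 and Hsp27, neighbours in the same direction with starts 2181 bp apart, thus had pooled summits at 177 and 158 bp before their starts but ranked 13711 and 651. Both replicates placed Hsp23 below Hsp27.

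Hsp67Ba was the gene without a promoter peak in any of the 4 lists. The nearest pooled summit to its TSS lay 1022 bp upstream, just outside the 1 kb rule, with a value of 49.5 and rank 26178. It fell in an exon of the antisense gene asRNA:CR43481, 197 bp from that gene's nearest start. Replicate 7 had it 1020 bp upstream, with a value of 25.9 and rank 29716 of 30000, and replicate 5 had none there. Of the other genes that overlap the cluster or its 1 kb margins, the alpha-crystallin gene CG4461, between Hsp22 and Hsp26, had no promoter peak in any list.

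**Figure D2:**
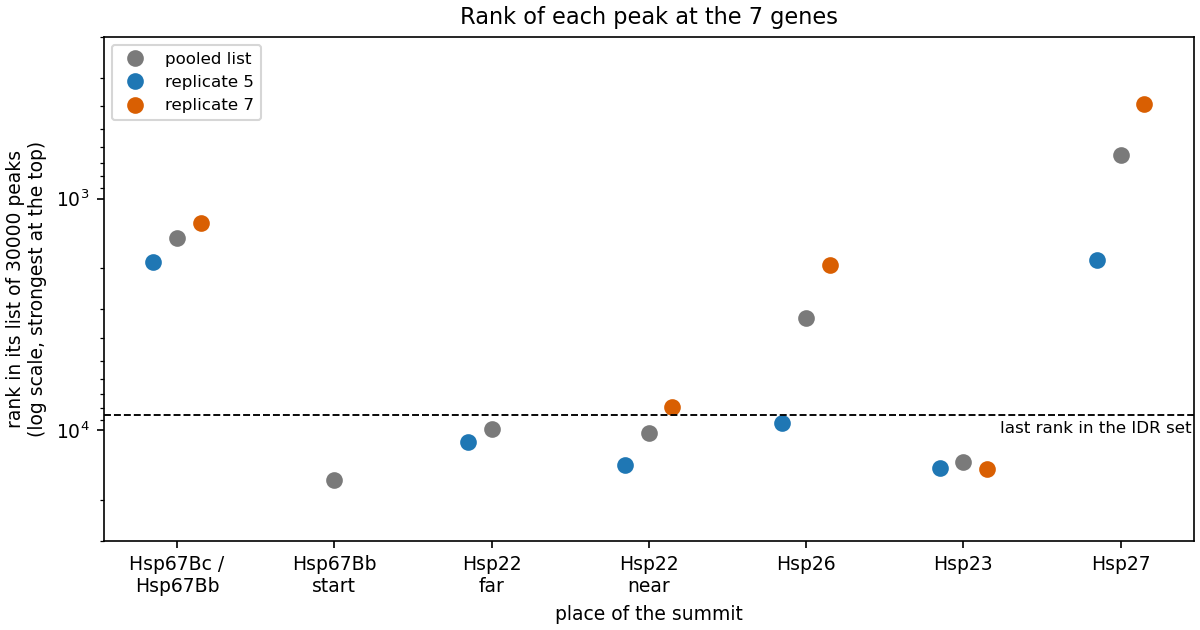
Rank of each peak (log scale, strongest at the top) in the pooled list and both replicates, by place; the pooled and replicate lists hold 30000 peaks each. "Far" and "near" are the summits 404 and 186 bp before the inner Hsp22 start. The dashed line marks rank 8574, the size of the IDR set; the peaks of Hsp67Bc/Hsp67Bb and Hsp27 lie above it in both replicates, Hsp26 in replicate 7 but not in replicate 5, and Hsp23 in neither.

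Each replicate's peaks at the 7 genes overlapped peaks of the other replicate. All 6 of replicate 5 overlapped a peak of replicate 7 by at least 1 bp, beside 77.3% of the whole list, and all 5 of replicate 7 overlapped a peak of replicate 5, beside 80.7%. The 2 peaks of replicate 5 before the inner Hsp22 start overlapped the same replicate 7 peak. With summits required to lie within 100 bp, 5 of the 6 and 5 of the 5 were shared, beside 59.4% of the whole list in each direction. The order of strength was less alike. In both replicates the peaks of Hsp27 and of Hsp67Bc and Hsp67Bb ranked above that of Hsp26, and Hsp23 ranked last. In replicate 5 the first 2 were nearly equal, at ranks 1847 and 1875, whereas in replicate 7 they stood at 390 and 1277. For Hsp26 the rank in replicate 5 was 4.79 times that in replicate 7, and for Hsp27 it was 4.74 times. The median ratio of the larger to the smaller rank over IDR peaks was 1.53. A larger ratio in either direction was seen in 3.61% of IDR peaks for Hsp26 and 3.71% for Hsp27. In this direction alone the shares were 2.42% and 2.50%. The shared Hsp67Bc and Hsp67Bb peak was ordinary in this respect, with a ratio of 1.47. With 2 libraries these differences could not be tested.

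**Figure D3:**
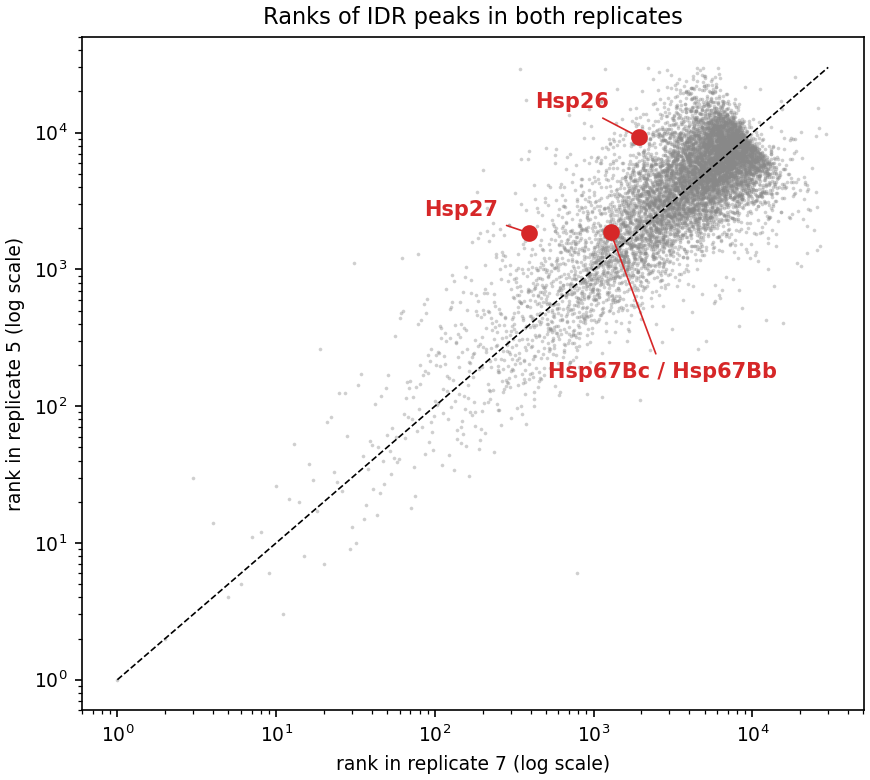
Rank in replicate 5 against rank in replicate 7 (both log scales) for the 8356 IDR peaks found in both replicates (grey points), with the 3 peaks of the heat shock cluster in red and equal ranks as the dashed line. Hsp26 and Hsp27 lie above the line, at ranks 9260 and 1847 in replicate 5 against 1935 and 390 in replicate 7; the Hsp67Bc/Hsp67Bb peak lies near it.

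Summits were denser inside the cluster than over the arm. The nearest IDR summit to the left was 11164 bp away, in the 5' UTR of Pdxk, with a value of 186. The nearest to the right was 11633 bp away, in an intron of CG4080, with a value of 482. In the pooled list the distances were 11164 and 10181 bp. Inside the cluster there were 2.12 IDR summits per 10 kb, beside 0.678 over arm 3L, and 5.64 pooled summits per 10 kb, beside 2.47. Pooled peaks covered 16.5% of the cluster and 8.50% of the arm. These densities were not tested, and the cluster is a run of short genes with closely spaced starts.

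Heat shock element pairs lay in front of most of these genes. In the 250 bases before their starts, 5 of the 7 genes had a pair, beside 13.2% of 19253 TSS positions of protein-coding genes. A gene counted if any of its starts had a match, whereas the shares in this paragraph are per start. Hsp22, Hsp26 and Hsp67Bb have 2 starts each, so counts and shares are not strictly alike. Hsp67Bc had its pair 119 bp before the start, and Hsp26 had 2, at 216 and 128 bp before the longer transcript. The window before the shorter Hsp26 transcript held the nearer of these again, at 180 bp, and another pair at 49 bp. That last pair lay outside the Hsp26 peak. Hsp23 had 2, at 168 and 138 bp, and the inner Hsp22 start had 2, at 188 and 87 bp. The single pair between Hsp67Bc and Hsp67Bb was in front of both genes, 113 bp before the latter. Hsp27 and Hsp67Ba had none in this window. GAGAG, read on both strands, was found before 4 of the 7 genes and 6 times before Hsp26, with overlaps counted, beside 29.1% of starts. The TATA word TATAAA, also read on both strands, was found before 6 genes, beside 39.6%. It lay 27 or 28 bp before the starts of Hsp67Bc, Hsp23, Hsp27, the inner Hsp22 transcript and the shorter Hsp26 transcript. The Hsp67Bc match at 28 bp was also counted for Hsp67Bb, 202 bp before its first start. These are matches of letters and not measured binding of Hsf or GAGA factor.

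Summits and heat shock element pairs coincided at Hsp26 and at the inner Hsp22 promoter. The pooled and replicate 5 summits of Hsp26 fell inside a pair, and that of replicate 7 lay 4 bp from this pair. Within 200 bp of the pooled Hsp26 summit lay 5 pairs, so it met a single pair among several. The pooled summit nearest to the inner Hsp22 start had 2 pairs within 200 bp. The pooled and replicate 5 summits nearest to the inner Hsp22 start also fell inside a pair, while the replicate 7 summit lay 59 bp away. At Hsp23 the pooled and replicate 7 summits lay 9 bp from a pair and the replicate 5 summit 49 bp. Between Hsp67Bc and Hsp67Bb the replicate 7 summit lay 2 bp from the pair, but the pooled and replicate 5 summits were 57 and 69 bp away, nearer to Hsp67Bc. Over whole lists, 0.403% of pooled summits, 0.423% of replicate 5 summits and 0.500% of replicate 7 summits fell inside such a pair, and 1.48%, 1.41% and 1.57% lay within 10 bp of one. Of the summits at the 7 genes, 3 of 7, 2 of 6 and 3 of 5 lay within 10 bp. This measure was chosen after the positions had been seen.

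**Figure D4:**
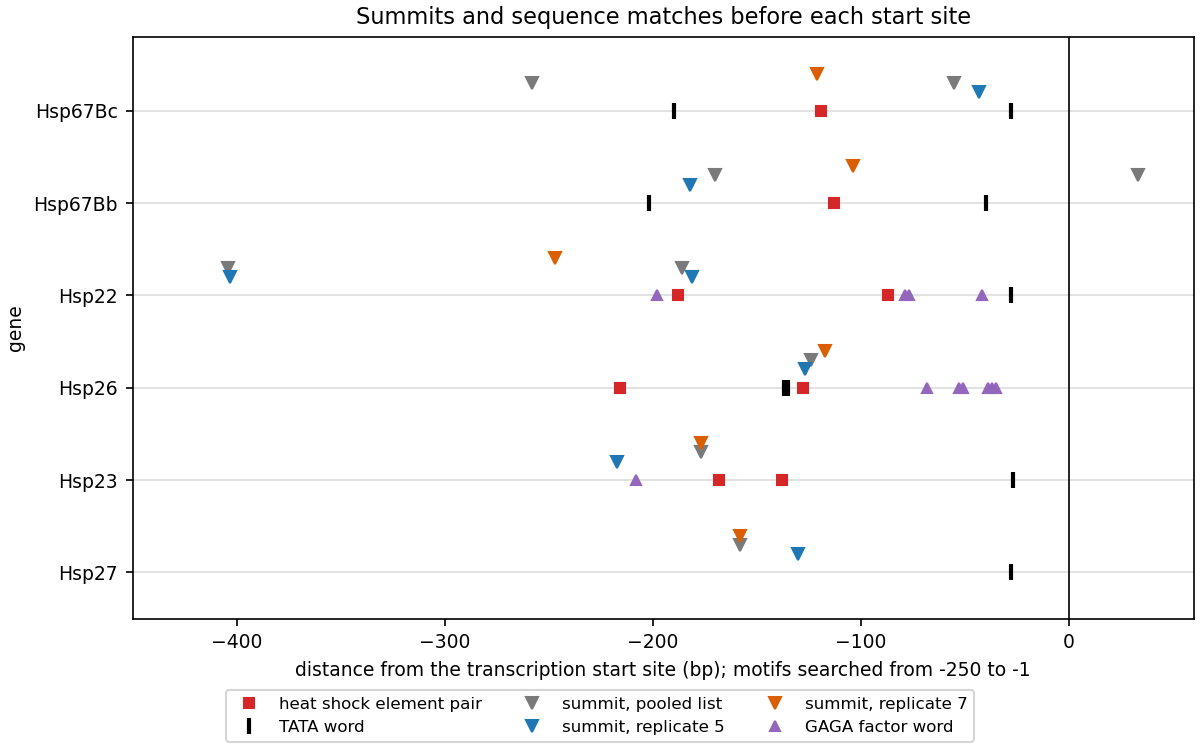
Summits (triangles pointing down, by list) and matches to a heat shock element pair, the GAGA factor word and the TATA word near the start of 6 of the 7 genes, plotted by distance from the transcription start in bp, with matches searched over the 250 bases before it; for Hsp22 the inner start and for Hsp26 the longer transcript is used. At Hsp26 the 3 summits, 127 to 117 bp before the start, gather at the nearer heat shock element pair. At Hsp27 no pair lies in this window.

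The strongest peak, at Hsp27, held no heat shock element pair, and the nearest pair lay 173 bp from its summit. Over the 1000 bases before the start of Hsp27, a window searched after the result for 250 bases was known, pairs lay 338 and 636 bp upstream, beside 43.3% of protein-coding starts with a pair in such a window. The core GNTCANTG of the ecdysone response element lay 546 bp upstream, beside 32.4% of starts. Hsp27 is known for an ecdysone response element in its upstream region. The nearer pair and the ecdysone core lay outside the peak, upstream of its first base. Each is given within a stretch of 30 bases, with the pair or the core in capitals, and these stretches ended 29 and 237 bp before the peak. They are shown because they hold exact matches of letters that lay outside the deposited limits of the peak. Whether these matches are the known elements of this promoter was not tested.
Hsp27 heat shock element (chr3L:9383714-9383743, plus strand, 349 to 320 bp before the start): agaaatgtcaaGAAgtTTCtggttctttct
Hsp27 ecdysone core (chr3L:9383506-9383535, plus strand, 557 to 528 bp before the start): gcgagacaaggGTTCAATGcacttgtccaa

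Within 100 bp on each side of the 3 IDR summits of the cluster, a heat shock element pair was found at Hsp26 and between Hsp67Bc and Hsp67Bb, beside 9.45% of all 8574 IDR windows. GAGAG was found at Hsp26, beside 32.4%. None of the 3 held 3 or more GAA and TTC units in alternation, the longer form of the element, which 0.350% of IDR windows held. Over the wider window of 1000 bases before the starts, the only such run at the cluster genes was that of Hsp23. It lay 406 bp upstream, beside 1.33% of protein-coding starts with a run. The Hsp23 summits, below the IDR limit, lay nearer to the start, at 177 bp in the pooled list and replicate 7 and 217 bp in replicate 5. The ecdysone core GNTCANTG was found within 250 bases of a start at the inner Hsp22 TSS, 161 bp upstream, beside 8.24% of starts.

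By the strength of the promoter peak, the 3 IDR peaks of the cluster lay around and above the middle of the bound genes. Hsp23 and Hsp67Ba, without an IDR promoter peak, have no place in this ranking. Among the 2975 protein-coding genes with an IDR promoter peak, whose median value was 356, Hsp27 stood at place 405. Hsp22, Hsp67Bb and Hsp67Bc stood together at place 787 with their single peak. Hsp26, at place 1528 and 346, was just under the median. Peak values were also read for chaperone genes elsewhere, from lists chosen by name. Of the 5 other alpha-crystallin family genes, 1 had an IDR promoter peak, l(2)efl, with a value of 334. Of 15 larger chaperones, 6 had one. Over all protein-coding genes the share with an IDR promoter peak was 21.3%, and the list counts were not tested. Hsp83, the fly Hsp90, had 984, above Hsp27, and DnaJ-1, an Hsp40 co-chaperone, had 595. Hsc70-5 had 385, Hsc70-4 had 258 and Hsc70-3 had 191. Hsp68, a stress-inducible Hsp70 family member, had 194. The 6 Hsp70 copies had no promoter peak in any list; they are nearly identical to each other, and the treatment of reads from repeated sequence is not stated in the labels or notes. Of 5 regulators and partners, 4 had an IDR promoter peak, beside the same 21.3%. Trl, the gene of GAGA factor, had 1360, the ecdysone receptor genes usp and EcR had 691 and 449, and stv, the gene of starvin, had 252. Hsf, the gene of the heat shock factor, had none in any list.

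**Figure D5:**
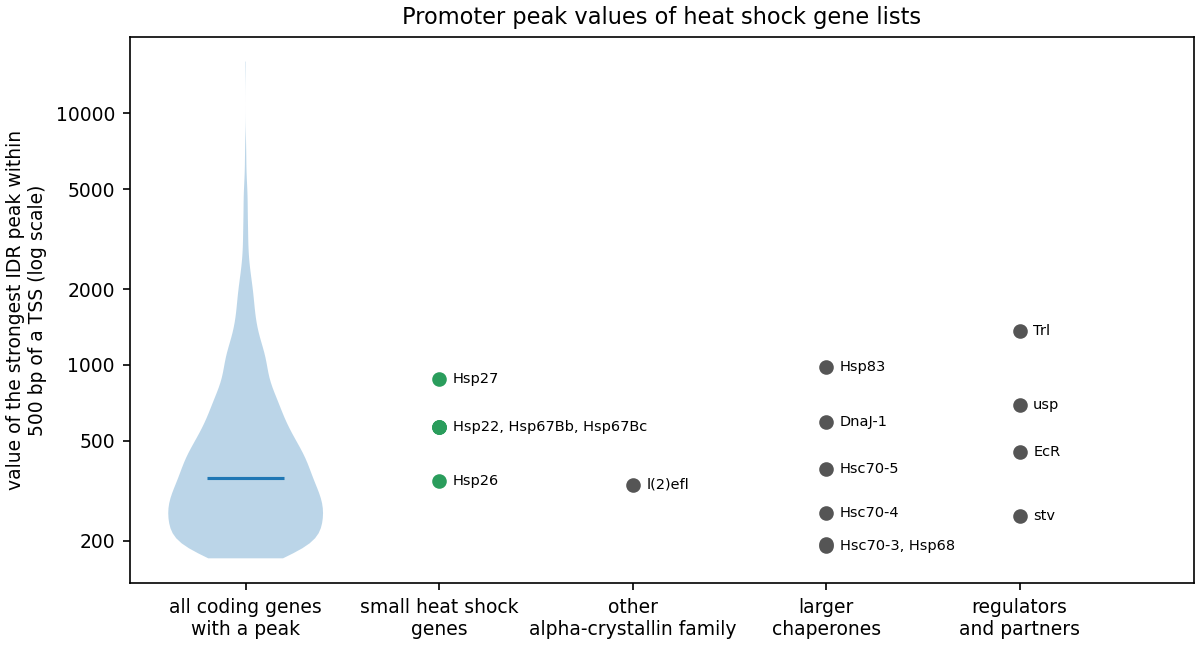
Value of the strongest IDR peak within 500 bp of a TSS (log scale) for all 2975 protein-coding genes that have one (outline, with the median as a line) and, as points, for the genes of 4 lists; genes without such a peak are not drawn. Hsp27 at 879 lies well above the median of 356 and Hsp26 at 346 just under it.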

How the data were processed

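ChIP-seq for GFP-tagged CG12769 was done on whole embryos, in 2 biological replicates of 1 group, with chromatin sheared to 200 to 800 bp per the labels. The labels' age field holds a value no embryo can have, so the age was taken from the sample source. The authors deposited 4 peak lists on dm6: replicate 5, replicate 7, both pooled, and the IDR set derived from these. For each peak the authors deposited a signal value from their caller, with no scale given, so peaks were ranked only inside their list. A −log10 q-value was deposited too, but since 5466 IDR peaks share its highest value, it was not used. Neither aligner, caller, versions nor IDR limit is named: not given in the sources used here. Depth is unknown.

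Genes came from Ensembl release 115 (BDGP6.54, the dm6 sequence) on 6 arms, and sequence from RefSeq's copy of that assembly. Of the 7 genes, 6 matched by symbol and 1 by synonym. Positions are 1-based. The genes, gene lists and motifs were chosen with earlier results of these data known. All 7 genes, those overlapping the cluster or its 1 kb margins, and the listed chaperones and regulators could be named. No test was made, since 1 group with 2 libraries allows none. Scripts used Python 3.11.15, pandas 2.3.3 and numpy 2.4.6 and were tested on simulated data. Alternatives varied the distances, the list, the motif window and the replicate.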

Additional observations from a re-analysis of the deposited data

How the results depend on the processing

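The 3 IDR peaks at the 7 genes stood upstream of starts and not in genes: with only summits inside a gene counted, 0 peaks and 0 genes remained. The whole pooled list gave 7 peaks. With each peak given to 1 gene alone, 3 genes had a promoter peak in place of 5, since 1 peak serves 3 genes. A heat shock element pair lay within 50 bp of 1 of the 3 summits and within 200 bp of all 3, in place of 2 within 100 bp. Of all IDR windows, 4.81% held a pair within 50 bp, 17.4% within 200 bp and 9.45% within 100 bp. GAGAG lay within 50 bp of 0 summits and within 200 bp of 2, in place of 1 within 100 bp. Its shares of all IDR windows were 17.4% within 50 bp, 52.2% within 200 bp and 32.4% within 100 bp. A shorter or longer window holds fewer or more letters. Taking as many of the strongest peaks from 1 replicate alone gave 2 to 4 peaks, 4 to 6 genes by the 1 kb rule and 4 to 5 genes by the promoter rule; the lower numbers are without replicate 7, where Hsp26 drops out. No paired analysis was possible because there was 1 group. The other distances, the whole peak, coding transcripts, the 2143 strongest IDR peaks and stricter sharing kept each count within 1.5 times. Without depth, a missing peak at Hsp67Ba does not show absent binding.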
